A study of Danio rerio with 11 samples.

Results

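The transcription factor genes of the roof plate and dorsal neural tube were examined by RNA-seq in 11 whole zebrafish embryos, sequenced singly, at about 25 hpf (hours post fertilisation) and raised at 29 °C. They are the rows of the deposited tables named lmx1a or beginning with lmx1, msx, pax3 or pax7, which gave 11 genes of 14473: 3 lmx1 genes, 5 msx genes, 1 pax3 gene and 2 pax7 genes. All 11 passed the filter on low counts, as did 12301 genes of the whole table. The embryos fall into 6 labelled as rfx4 mutants (replicates 1, 3, 4, 5, 6 and 7) and 5 siblings labelled as controls (replicates 2, 3, 4, 7 and 8). The series design gives an incross of carriers of the rfx4 allele uw8013, with mutants and siblings told apart by phenotype, so a sibling may be wild type or heterozygous. The growth protocol instead names parents that carry zic2 mutations, and the sources used here do not resolve this. Each library is 1 embryo, so the spread within a group includes differences between animals.

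The roof plate is the dorsal midline of the neural tube, a signalling centre that secretes Bmp, Gdf and Wnt ligands to pattern the progenitors beside it. Lmx1a, a LIM-homeodomain factor, is needed for the roof plate to form in mouse. Msx homeobox genes respond to Bmp signalling in the dorsal neural tube and are also used in neural crest and fin fold. Pax3 and Pax7, paired-box factors, mark dorsal progenitors over a broad domain and act in neural crest, pigment cells and muscle progenitors as well. In whole embryos, fewer cells of a type and less RNA per cell cannot be told apart.

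Total counts ranged from 16238368 to 21104811 per library. The gene rfx4 had between 589 and 942 counts in the mutants and between 857 and 1383 in the siblings, so its transcript was present in every mutant. Mutants 6 and 7 lay within the sibling range of rfx4 and the other 4 mutants below it. Whether the lesion lowers the transcript is not given in the labels, so this is a weak check of them. Some libraries stood apart on a principal component analysis of the tested genes: mutant 7 and sibling 3 lay together on the first component (22% of the variance). Mutant 6 was outermost at the opposite end of the first, at 25.98 against at most 11.44 in the others. It also lay away from the rest on the second (17%). The lmx1 genes and the list medians are given below also without mutant 7, sibling 3 and mutant 6. Other values are given without mutant 6 where that moved them by over 1.5 times. 

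Levels across genes were compared in TPM, which scales for gene length. In the siblings msxc and msxb were the most abundant of the 11 genes, at 77.6 ± 7.40 and 69.2 ± 4.91 TPM (SD, n = 5). They were followed by pax7a at 40.8 ± 5.31 TPM and msxd at 22.8 ± 1.24 TPM. A middle group held pax7b (19.0 ± 1.86 TPM), pax3a (17.1 ± 2.25 TPM) and lmx1bb (12.9 ± 0.83 TPM). The lowest were msxe (8.85 ± 1.40 TPM), lmx1ba (5.11 ± 0.81 TPM), msxa (4.88 ± 0.78 TPM) and lmx1a (1.73 ± 0.43 TPM). The neighbours msxc and msxb, pax7b and pax3a, pax3a and lmx1bb, and lmx1ba and msxa had overlapping ranges over the siblings. Within single embryos, pax7b exceeded pax3a in 5 of 5 siblings and 5 of 6 mutants. Likewise pax3a exceeded lmx1bb in 5 of 5 siblings and 6 of 6 mutants. The order was less settled for msxc over msxb (4 siblings, 2 mutants) and for lmx1ba over msxa (3 siblings, 3 mutants). The other neighbours did not overlap in siblings. The roof plate gene lmx1a was therefore the scarcest member, and its mean of 1.17 CPM over all embryos was higher than that of 5.25% of the tested genes.

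**Figure D1:**
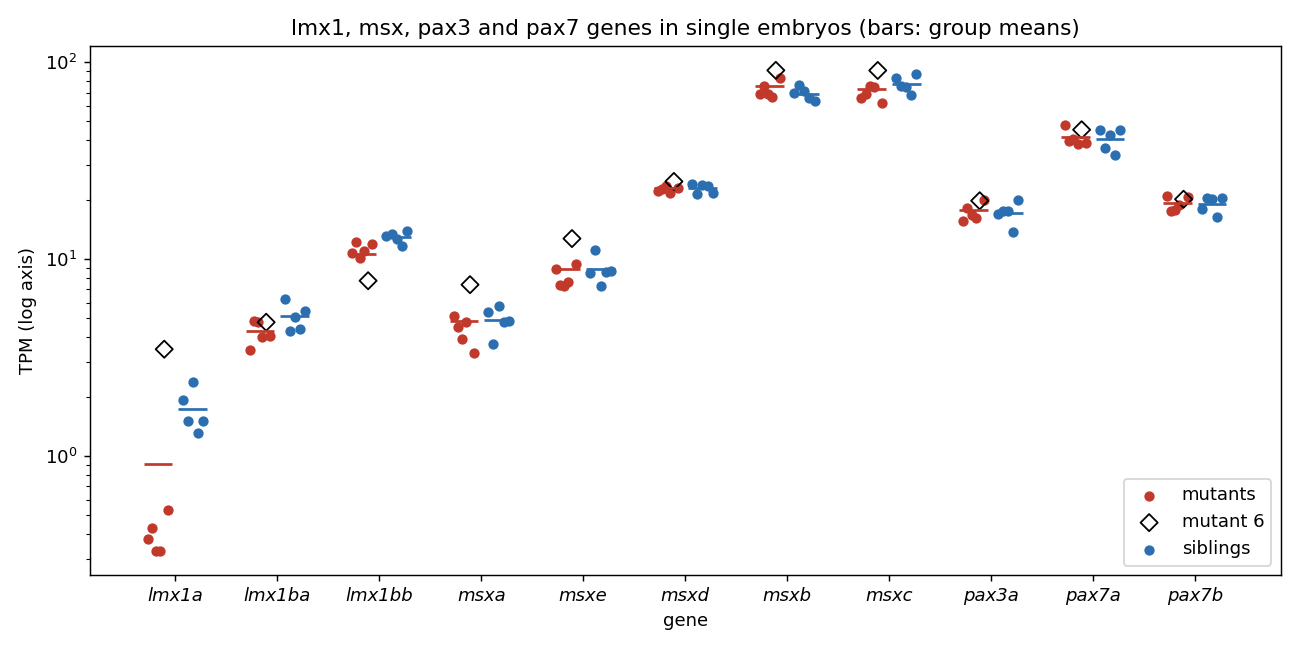
TPM on a log axis for each of the 11 genes in the 6 mutants (red, with mutant 6 as an open diamond) and the 5 siblings (blue), with a bar at each group mean. In lmx1a 5 mutants lie at 0.33 to 0.53 TPM, below the siblings at 1.31 to 2.38 TPM, while mutant 6 lies above them at 3.48 TPM.

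The lmx1a transcript was scarce in 5 of the 6 mutants and most abundant of all 11 embryos in mutant 6. The counts of lmx1a were 6, 7, 5, 5 and 9 in mutants 1, 3, 4, 5 and 7, against 52 in mutant 6. The siblings had 32, 30, 37, 22 and 24 counts, in the order of replicates 2, 3, 4, 7 and 8. Scaled to library size these were 0.295 to 0.488 CPM in the 5 low mutants, 1.22 to 2.18 CPM in the siblings and 3.11 CPM in mutant 6. The 5 low mutants thus lay below every sibling and mutant 6 above every sibling. The sibling mean was 4.36 times that of the 5 low mutants (0.362 ± 0.076 CPM, SD, n = 5), and mutant 6 was at 1.97 times the sibling mean. Exact 95% Poisson intervals, which cover counting error only, reached at most 17.1 counts in the low mutants and spanned 38.8 to 68.2 counts in mutant 6. The lowest interval among the siblings, that of sibling 7, began at 13.8 counts and so overlapped the highest among the low mutants.

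Over all 11 embryos the split among the mutants left lmx1a short of the threshold. Mutants averaged 0.82 ± 1.12 CPM and siblings 1.58 ± 0.38 CPM (SD, n = 6 and 5). The log2 fold change was −0.95 ± 0.57 (SE, edgeR adjusted p = 0.793, 95% interval −2.18 to 0.28). An exact two-sided permutation test of mean log2 CPM over the 462 splits of the embryos gave p = 0.026 (0.583 adjusted over all tested genes), where the smallest value the design allows is 0.00433. Of the 11 genes edgeR called 0, and it called 0 of 12301 genes in all (0%). DESeq2 called 0 of the 11 and 43 genes in all (0.342%), and gave no p-value for lmx1a. At an unadjusted p under 0.05, edgeR held 1 of the 11 (lmx1bb) beside 6.85% of all genes.

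The lmx1a difference depended on mutant 6. The embryos were sorted by phenotype, and the label of mutant 6 was kept as given although its levels did not all go one way. It lay above every sibling in lmx1a, shhb, zic2a and zic5 and within their range in rfx4, but below every sibling in lmx1bb, atoh1a, ascl1b, foxa2 and nkx2.9. Whether its label is right was not tested, and every value over all 6 mutants includes it. Without it the log2 fold change was −2.09 ± 0.24 (SE, edgeR adjusted p = 0.003), a 4.27-fold lower level in mutants, and lmx1a was the only 1 of the 11 genes called, beside 0.196% of all genes and 0.171% called lower. Leaving out a mutant above the siblings had to widen the difference, so this is no independent support. With sample weights estimated by voom, mutant 6 had the lowest weight of all libraries (0.405, against 2 for mutant 5). In that fit lmx1a stood at −1.93 (adjusted p = 0.0329) and was the only 1 called (0.26% of all genes, 0.203% lower). The weights came from these same data, so this call is no independent support either. Without mutant 7 and sibling 3, lmx1a was at −0.87 (edgeR adjusted p = 0.746). Without those libraries and mutant 6 it was at −2.26 (edgeR adjusted p = 0.00846), which leaves out mutant 6 once more. In the edgeR fit over all 11 embryos, mutant 6 included, the biological coefficient of variation of lmx1a was 0.63. The median over all tested genes was 0.13, and the dispersion of lmx1a exceeded that of 99.4% of them. The SD of its log2 CPM was 1.22 in the 6 mutants and 0.319 in the siblings.

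The related gene lmx1bb behaved differently from lmx1a in mutant 6. Lmx1b factors maintain the midbrain-hindbrain organiser in zebrafish and are also used in periocular mesenchyme, otic tissue and serotonergic neurons. Expression of lmx1bb was 13.6, 15.2, 13.9, 13.9, 9.92 and 15.6 CPM in mutants 1, 3, 4, 5, 6 and 7 and 16.8, 18.1, 16.6, 16.1 and 17.9 CPM in siblings 2, 3, 4, 7 and 8. All 6 mutants lay below all 5 siblings in CPM, and mutant 6, the highest embryo for lmx1a, was the lowest for lmx1bb. It was the only 1 of the 11 genes whose groups did not overlap, beside 0.488% of tested genes without overlap and lower in mutants. In TPM mutants 3 and 7, at 12.2 and 11.8, lay above sibling 7 at 11.7, so the separation was narrow. The log2 fold change was −0.32 ± 0.10 (SE, edgeR adjusted p = 0.614, 95% interval −0.54 to −0.09), and the unadjusted edgeR p was 0.00931, beside 3.06% of all genes lower at an unadjusted p under 0.05. The exact two-sided permutation p was 0.00433, the smallest the design allows, and 0.459 adjusted over all genes. The fold change was −0.24 ± 0.07 without mutant 6, −0.33 ± 0.11 without mutant 7 and sibling 3, and −0.24 ± 0.08 without all 3 libraries. In the 6 embryos whose replicate numbers occur in both groups (3, 4 and 7) it was −0.18 ± 0.11.

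Expression of lmx1ba, the other lmx1b gene, was 4.61 to 6.91 CPM in mutants (median 6.01) and 6.14 to 8.48 CPM in siblings (median 7.09). Mutants 1, 5 and 7 lay below every sibling and the other 3 within the sibling range. Its log2 fold change was −0.27 ± 0.13 (SE, edgeR adjusted p = 0.736, 95% interval −0.55 to 0.01), with an exact permutation p of 0.0519. It was −0.30 without mutant 7 and sibling 3 and −0.33 without mutant 6 as well, but −0.05 ± 0.15 in the 6 embryos with shared replicate numbers. All 3 lmx1 genes thus had lower fitted values in mutants without passing the threshold over all 11 embryos. Summed over the 3 genes, mutants had 15.8 ± 1.03 TPM and siblings 19.8 ± 1.54 TPM (SD, n = 6 and 5), with the highest mutant (17.44 TPM, mutant 3) just above the lowest sibling (17.42 TPM, sibling 7).

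In percentage points, the lmx1a and lmx1bb shares of the lmx1 transcripts lay further from the siblings in mutant 6 than in the other mutants. The share of lmx1a in the summed lmx1 TPM was 2.16% to 3.23% in the 5 low mutants, 7.26% to 11.9% in the siblings and 21.8% in mutant 6. The share of lmx1bb was 48.4% in mutant 6, against 66.6% to 73.6% in the other mutants and 61.5% to 69.7% in the siblings. The share of lmx1ba overlapped, at 23.8% to 31.2% in mutants and 22.4% to 29.4% in siblings.

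The 5 msx genes showed no difference between the groups that passed the threshold. RefSeq lists the names used in the tables as synonyms: msxa of msx2a, msxb of msx1b, msxc of msx3, msxd of msx2b and msxe of msx1a. Expression of msxb was 58.9 to 81.5 CPM in mutants (median 66.2) and 57.7 to 71.9 CPM in siblings (median 63.1), so the groups overlapped, with mutants 6 and 7 highest. The log2 fold change of msxb was 0.09 ± 0.09 (SE, 95% interval −0.10 to 0.29), and 0.04 ± 0.08 without mutant 6. Expression of msxc was 38.5 to 54.5 CPM in mutants (median 42.6) and 44.0 to 52.9 CPM in siblings (median 47.6). Mutants 1, 3 and 7 lay below every sibling in msxc and mutant 6 above, and the fold change was −0.12 ± 0.09 (95% interval −0.32 to 0.09). Without mutant 6 it was −0.18 ± 0.08, at an unadjusted edgeR p of 0.038. Such a p was then reached by 4 of the 11 genes (lmx1a, lmx1ba, lmx1bb and msxc), beside 6.78% of all genes. Mutant 6 lay above every sibling in lmx1a and msxc, so leaving it out had to lower both. The count is therefore no independent support.

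The gene of the set with the lowest dispersion in the edgeR fit was msxd. It was at 21.1 to 24.7 CPM in mutants and 21.3 to 24.5 CPM in siblings, with a coefficient of variation of 6.62% and 5.84%. In the siblings alone lmx1bb was more even, at 5.07%. The log2 fold change of msxd was −0.02 ± 0.07, with a 95% interval of −0.17 to 0.13, and was −0.04 without mutant 6. The scarcer msxa and msxe were at 2.88 to 6.22 and 4.99 to 8.85 CPM in mutants, and at 3.26 to 4.96 and 5.26 to 8.17 CPM in siblings. Mutant 6 was the highest of all 11 embryos in both. Their fold changes were −0.04 ± 0.19 and −0.03 ± 0.16, with 95% intervals of −0.44 to 0.37 and −0.39 to 0.32. Without mutant 6 they were −0.19 and −0.16. The sign of the msxa, msxd and msxe values changed in part of the repeats. Summed over the msx genes, mutants had 185 ± 20.4 TPM and siblings 183 ± 7.66 TPM (SD, n = 6 and 5), and the highest embryo was mutant 6 at 226 TPM. Over the 11 genes, mutant 6 was the highest embryo for 5 (lmx1a, msxa, msxb, msxc and msxe) and the lowest for 1 (lmx1bb), beside 16.5% and 18.1% of all tested genes.

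The broad dorsal factors pax3a, pax7a and pax7b overlapped between the groups, and 0 of the 3 passed the threshold (edgeR adjusted p = 0.97, 0.981 and 0.982). Expression of pax3a was 27.7 to 37.0 CPM in mutants and 26.2 to 36.0 CPM in siblings, with a log2 fold change of 0.02 ± 0.10 (SE, 95% interval −0.18 to 0.23). Expression of pax7a was 27.7 to 35.3 CPM in mutants and 26.3 to 33.2 CPM in siblings, with a fold change of 0.01 ± 0.09 (95% interval −0.17 to 0.20). Expression of pax7b was 24.6 to 30.7 CPM in mutants and 25.1 to 31.0 CPM in siblings, with a fold change of −0.01 ± 0.08 (95% interval −0.18 to 0.16). Without mutant 6 these values were −0.01, −0.01 and −0.02, and each of the 3 changed sign in part of the repeats. On the linear scale the intervals of the 3 genes lay between 0.88-fold and 1.17-fold. Of the summed pax7 TPM, pax7a made up 68.4% ± 1.78 in mutants and 68.05% ± 2.70 in siblings (SD, n = 6 and 5). Mutant 6 was neither the highest nor the lowest embryo in any of the 3.

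**Figure D2:**
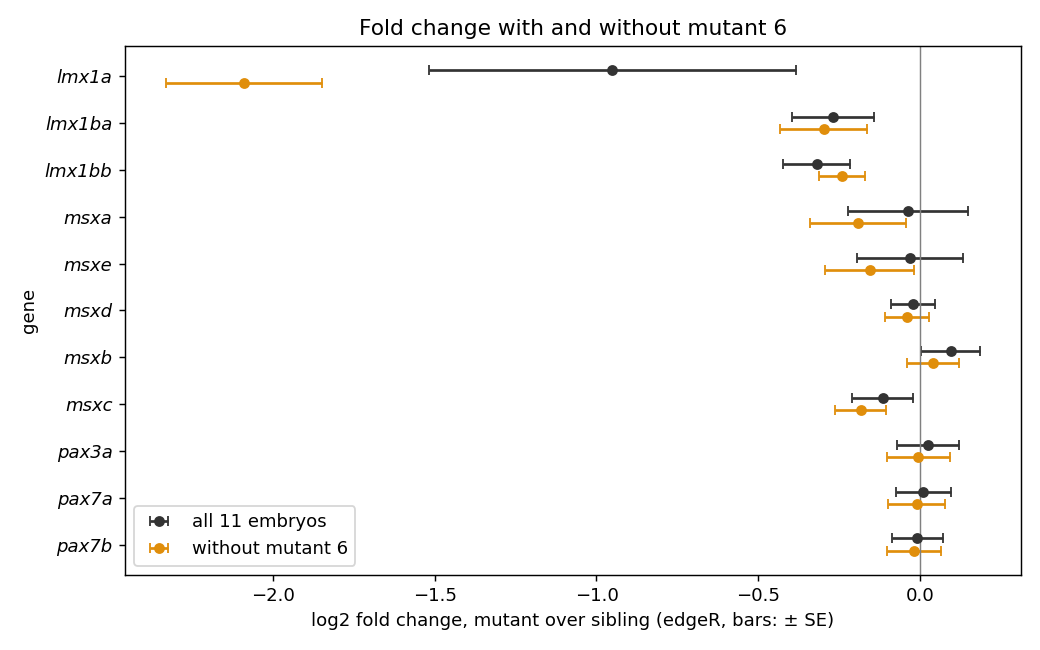
Log2 fold change of mutant over sibling with its SE from edgeR for each gene, over all 11 embryos (dark) and without mutant 6 (orange). Leaving out mutant 6 moves lmx1a from −0.95 to −2.09, while pax3a, pax7a and pax7b stay within 0.03 of 0.

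Of the 11 genes, 8 were fitted lower in mutants and 3 higher, and their median log2 fold change was −0.03. Of all 12301 tested genes 6126 were fitted lower and 6175 higher, and the median was 0.00089. Without mutant 6 the counts among the 11 were 10 lower and 1 higher, and their median was −0.16. The median over all genes tested without it was 0.00039. Mutant 6 was the highest embryo for 5 of the 11, so leaving it out had to lower the fitted values of those 5. The genes that turned from higher to lower were not among them. They were pax3a (0.0239 to −0.00558) and pax7a (0.0106 to −0.0108).

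The genes whose levels followed lmx1a most closely were then named, by the Pearson correlation of log2 CPM with lmx1a over the 11 embryos. They were shhb, a Hedgehog ligand of the floor plate (r = 0.971, Spearman 0.909), crb1, an apical polarity gene (0.966, 0.882), zic2a, a zinc-finger factor of the dorsal neural tube (0.965, 0.873), adamts3, a secreted metalloprotease (0.962, 0.918), and zic5, a further zic factor (0.957, 0.836). These are the highest values among the 12290 tested genes outside the set, so no p is given for them. In each of the 5 the low mutants lay below every sibling and mutant 6 above every sibling. Expression of zic5, for example, was 20.5 to 24.5 CPM in the 5 low mutants, 37.4 to 42.9 CPM in the siblings and 46.5 CPM in mutant 6. Among the 5 siblings alone r was 0.04 for shhb, 0.18 for crb1, −0.10 for zic2a, 0.17 for adamts3 and −0.59 for zic5. Without mutants 4 and 5, whose lmx1a lay farthest from the median, r over the other 9 embryos was 0.937 to 0.958. Other low mutants and mutant 6 stayed in, so the steps between low mutants, siblings and mutant 6 remained. This is therefore no independent check.

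The same search over the 6 mutants gave zic5 and shhb (both r = 0.993), dnajb13, zgc:158766 and ncapd3 (each r = 0.992). Without mutant 6, r over the other mutants was 0.83, 0.822, 0.949, 0.745 and 0.8 in that order, so the values over 6 leaned on that embryo. Of these genes dnajb13, zgc:158766 and ncapd3 followed lmx1a less closely over all 11 embryos (r = 0.468, 0.322 and 0.676). Expression of ncapd3, a condensin subunit gene, was 202 CPM in mutant 6, 95.9 to 103 CPM in the other mutants and 95.9 to 117 CPM in siblings. Its level in the low mutants thus lay within the sibling range, and mutant 6 stood apart from both.

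The pattern of lmx1a, with 5 mutants below every sibling and mutant 6 above every sibling, was shared by 25 of the tested genes including lmx1a itself (0.203%). In 113 genes (0.919%) the same 5 mutants lay below every sibling, wherever mutant 6 lay. Beside shhb, zic2a and zic5, those of the 25 that stood on the lists below were wnt10b, rspo3 and notum1a.

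**Figure D3:**
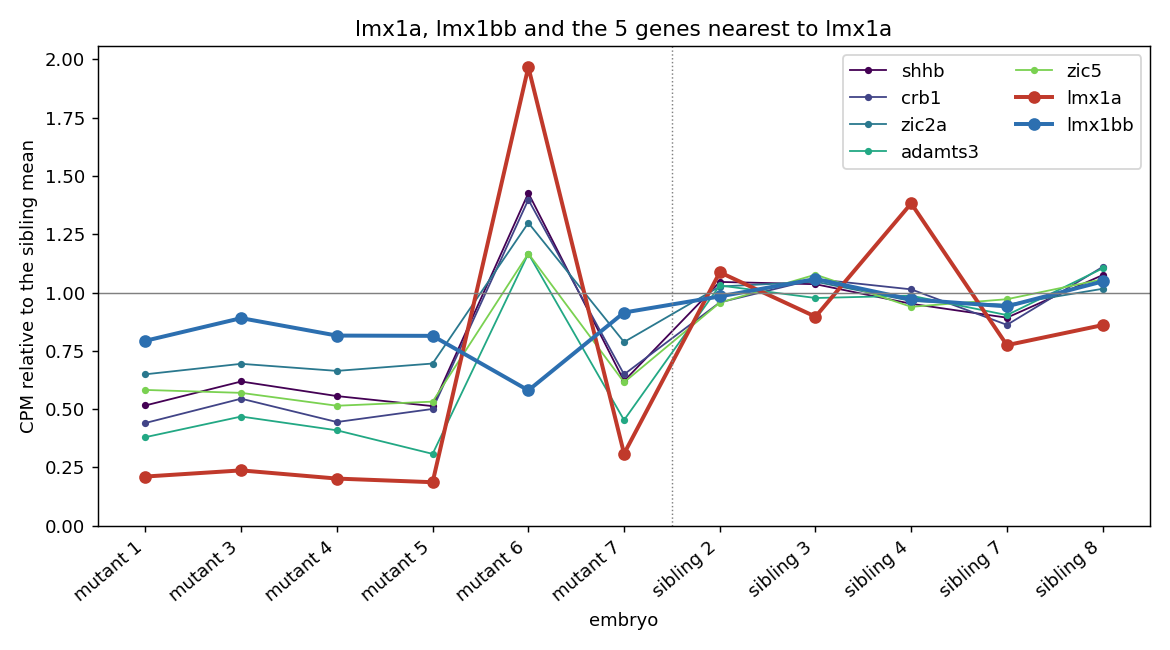
CPM of lmx1a (red), lmx1bb (blue) and the 5 genes nearest to lmx1a, each divided by its sibling mean, in every embryo. The nearest genes and lmx1a are low in 5 mutants and above the sibling mean in mutant 6, where lmx1a reaches 1.97 times that mean and lmx1bb has its lowest value.

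Genes that act with these factors were taken from lists chosen with earlier results of these data known. On the list of roof plate ligands and Wnt modulators, 15 of 18 genes were tested. EdgeR and DESeq2 called 0 of them, beside 0% and 0.342% of all genes. At an unadjusted p under 0.05 by edgeR the list held 1, rspo1, beside 6.85% of all genes. Of the 15, 9 were fitted higher in mutants and 6 lower, and the median log2 fold change was 0.09. The median was 0.01 without mutant 6, 0.06 without mutant 7 and sibling 3, and −0.14 without all 3. Mutant 6 was the highest of the 11 embryos in 13 of these 15 genes, beside 16.5% of all tested genes. On the other lists described below it was highest in 4 of 19 dorsal progenitor, 3 of 10 Bmp response, 5 of 10 Wnt response, 2 of 10 floor plate, 2 of 12 neural crest, 2 of 10 somite, 4 of 6 xanthophore, 8 of 13 fin fold and 6 of 15 isthmus and related genes. Expression of wnt3a, a Wnt ligand of the dorsal midline, was 1.11 to 1.85 CPM in the 5 low mutants, 1.79 to 4.25 CPM in siblings and 5.14 CPM in mutant 6. Expression of rspo1, which encodes an R-spondin that strengthens Wnt signalling, was 43.5 CPM in mutant 6, 0.32 to 5.17 CPM in the other mutants and 0.57 to 3.42 CPM in siblings. In log2 terms rspo1 differed by 2.82 ± 1.18 (SE, adjusted p = 0.711 by edgeR), and by 0.61 ± 0.72 without mutant 6. The Gdf ligand gene gdf6a was at 0.15 ± 0.08 (adjusted p = 0.752), with overlapping groups.

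On the list of dorsal progenitor transcription factors, 19 of 21 genes were tested. Of these, 18 were fitted lower in mutants and 1 higher, and the median was −0.24 (−0.27 to −0.24 without the libraries that stood apart). By edgeR 0 were called, and 8 were lower at an unadjusted p under 0.05, beside 3.06% of all genes. DESeq2 called 3, all lower, beside 0.342% of all genes called in either direction: atoh1a, the proneural factor of the most dorsal progenitors (−0.76 ± 0.13 SE by edgeR, DESeq2 adjusted p = 0.000177), ascl1b, a proneural factor of a more intermediate domain (−0.47 ± 0.11, DESeq2 adjusted p = 0.0323), and zic6 (−0.67 ± 0.16, DESeq2 adjusted p = 0.0309). Without mutant 6 edgeR called 4 lower (atoh1a, zic2a, zic5 and zic6), beside 0.171% of all genes. Mutant 6 was the highest mutant in all 4, so leaving it out had to widen their differences, and these calls are no independent support. In zic2a and zic5 it lay above every sibling. In zic6 it was at 25.2 CPM, against 12.8 to 15.5 CPM in the other mutants and 20.5 to 30.7 CPM in siblings. In atoh1a all 6 mutants lay below all 5 siblings, at 4.48 to 6.22 against 7.37 to 10.7 CPM, so here mutant 6 did not lie above the siblings as it did for lmx1a.

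The responses listed for Bmp and Wnt signalling had medians near that of all genes. Of 10 tested Bmp response genes 6 were fitted higher and 4 lower, with a median of 0.03 (−0.01 to 0.03 without the libraries that stood apart). Of the 10, 0 reached an unadjusted edgeR p under 0.05, beside 6.85% of all genes. Their lowest p belonged to id2b (0.13 ± 0.12) and id4 (−0.10 ± 0.11, −0.06 without mutant 6), which encode inhibitors of bHLH factors. Of 10 tested Wnt response genes 6 were fitted higher and 4 lower, with a median of 0.01. It was −0.05 without mutant 6, 0.01 without mutant 7 and sibling 3, and −0.10 without all 3. Again 0 of the genes reached such a p by edgeR. Their lowest p belonged to tcf7, a transcription factor of the Wnt pathway (0.22 ± 0.10), and notum1a, a secreted Wnt inhibitor (−0.46 ± 0.22, −0.71 ± 0.13 without mutant 6). Expression of notum1a was 8.00 to 12.4 CPM in the low mutants, 13.8 to 20.5 CPM in siblings and 22.5 CPM in mutant 6. DESeq2 called 0 on both lists, beside 0.342% of all genes.

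Genes of the floor plate, the ventral midline, were measured for comparison with the dorsal ones. All 10 listed genes were tested and fitted lower in mutants, and the median was −0.42 (−0.50 to −0.43 without the libraries that stood apart). Of these arxa was near 0, at −0.00407 ± 0.115 (SE), and at 0.046 without mutant 6. Without that embryo 9 genes were fitted lower and 1 higher. EdgeR called 0 and had 7 lower at an unadjusted p under 0.05, beside 3.06% of all genes. DESeq2 called 4, beside 0.342% of all genes, namely nkx2.9 (−0.78 ± 0.11 SE by edgeR), foxa2 (−0.48 ± 0.09), ntn1b (−0.99 ± 0.22) and nkx2.2b (−0.40 ± 0.10). Averaged over the list, log2 CPM stood at 4.27 in mutant 6, at 3.72 to 4.00 in the other mutants and at 4.29 to 4.41 in siblings.

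Markers of other tissues that use these factors were measured beside them. Of 12 tested neural crest genes 10 were fitted higher in mutants (median 0.13, 0.096 to 0.12 without the libraries that stood apart). Their summed levels overlapped, at 877 to 1080 CPM in mutants and 844 to 899 CPM in siblings. Of these genes mycn was at 407 CPM in mutant 6, 249 to 286 CPM in the other mutants and 231 to 288 CPM in siblings. The members of lowest p were snai1b (0.52 ± 0.15) and sox9a (0.18 ± 0.07). Of 10 tested somite and muscle progenitor genes 8 were fitted higher (median 0.30, 0.287 to 0.305 without the libraries that stood apart). Their sum was 248 to 280 CPM in mutants and 211 to 263 CPM in siblings. Lowest in p were meox1 (0.37 ± 0.10) and myf5 (0.39 ± 0.14). Of 6 tested xanthophore genes 5 were fitted lower (median −0.09, −0.19 to −0.10 without the libraries that stood apart). Their sum was 370 to 695 CPM in mutants and 475 to 582 CPM in siblings, with gch2 at −0.18 ± 0.17 and aox3 at −0.19 ± 0.19. Both gch2 and aox3 were at −0.34 without mutant 6. EdgeR and DESeq2 called 0 genes on each of these 3 lists, beside 0% and 0.342% of all genes. At an unadjusted edgeR p under 0.05 the lists held 3, 5 and 0, beside 6.85% of all genes. The part of these tissues in the levels of pax3a, pax7a and pax7b was not tested.

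For the msx genes, 13 fin fold and epidermal genes were tested, of which 7 were fitted higher and 6 lower (median 0.02). The median was −0.08 without mutant 6, −0.00157 without mutant 7 and sibling 3, and −0.05 without all 3. The members of lowest p were hmcn1, a hemicentin of the fin fold (0.32 ± 0.08), and sp8a (−0.30 ± 0.08). They were the only 2 of the 13 at an unadjusted edgeR p under 0.05, beside 6.85% of all genes. For the lmx1b genes, 15 genes of the isthmus, otic placode, periocular mesenchyme and serotonergic neurons were tested. Of these 7 were fitted higher and 8 lower (median −0.01). The median was −0.02 without mutant 6, 0.04 without mutant 7 and sibling 3, and 0.01 without all 3. The members of lowest p were eng2a, an engrailed gene of the isthmus (−0.22 ± 0.11), and fgf8a, its Fgf ligand (0.31 ± 0.16, 0.14 ± 0.08 without mutant 6, with 34.6 CPM in mutant 6 and at most 22.5 CPM elsewhere), and 0 reached an unadjusted edgeR p under 0.05. EdgeR and DESeq2 called 0 genes on both lists, beside 0% and 0.342% of all genes.

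**Figure D4:**
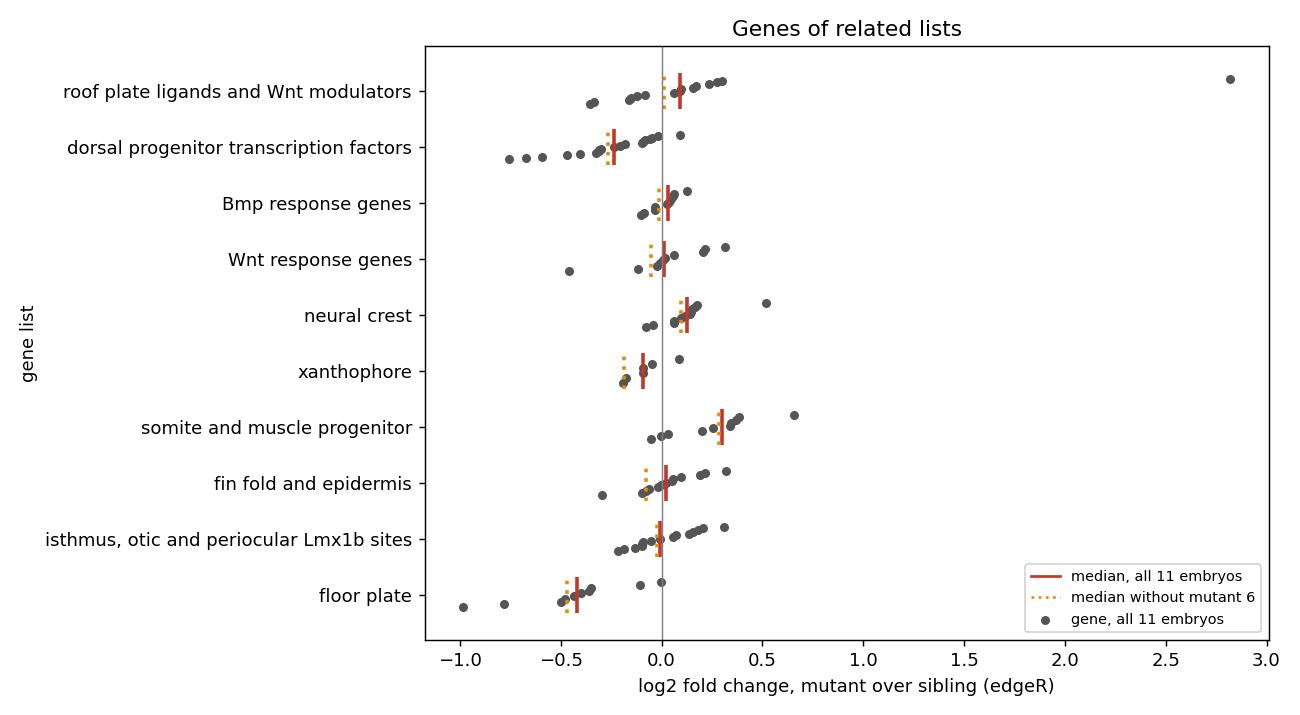
Log2 fold change of mutant over sibling (edgeR, all 11 embryos) for each tested gene of the 10 lists, with the list median over all embryos (red) and without mutant 6 (dotted orange). The floor plate list has the lowest median, −0.42, and the isolated point at 2.82 is rspo1.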

How the data were processed

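Per the labels' protocols, libraries of each embryo were made by TruSeq RNA v2 preparation. The authors deposited estimated counts, as whole numbers, and TPM values, which sum to 1000000 per embryo, for 14473 genes. CASAVA 1.8.2, Bowtie 1.1.1, RSEM 1.2.18 and build Zv9 are named per the submitters' processing notes, and the annotation is not given in the sources used here. RSEM splits reads among similar transcripts, so paralog values share some uncertainty. Groups and replicate numbers came from the sample titles.

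Counts were tested with edgeR 4.0.16 in R 4.3.3 (quasi-likelihood test, TMM, filterByExpr), with Benjamini-Hochberg adjustment over all tested genes and a threshold of 0.05. SE came from the F statistic, and 95% intervals from the t distribution of the fit. CPM used TMM library sizes, and log2 CPM a prior count of 1. DESeq2 1.42.0, limma 3.58.1 and scipy 1.17.1 served the repeats and the permutations. Tests were checked on simulated data. Same-numbered mutants and siblings did not deviate together (correlations −0.308, −0.195 and −0.144), so the numbers were not taken as pairs. No within-group pair of libraries agreed within sampling noise (smallest chi-square per degree of freedom 7.79 over 25 pairs).

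The genes and lists were chosen with earlier results of these data known. Named genes were the 11 members, the called genes of each list or else its 2 of lowest p, and the 5 genes nearest to lmx1a over all embryos and over mutants. Others named were chosen after their values were seen. RefSeq names (assembly GRCz12tu) matched 6 members by symbol and 5 by synonym.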

Additional observations from a re-analysis of the deposited data

Results flagged for a closer look

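In 2 of 22 groups of values, the 11 genes in each of the mutants and siblings, 1 embryo lay far from the others, by the gap to its nearest neighbour relative to the range of the group. Chance flags about 1 in 20 such groups. Both concern mutant 6. For lmx1a it was the highest mutant, at 1.66 log2 CPM, with a gap of 0.8 of the range. For lmx1bb it was the lowest mutant, at 3.32 log2 CPM, with a gap of 0.688 of the range.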

How the results depend on the processing

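Each result was recomputed with DESeq2 size factors, upper-quartile scaling, DESeq2, voom sample weights, no low-count filter, TPM with either pseudocount, a replicate block and each embryo left out. Omissions of mutant 7 and sibling 3, with or without mutant 6, and the 6 same-numbered embryos without the block were added after seeing the data. The lmx1a difference was −1.93 with voom weights and −2.26 without mutants 6 and 7 and sibling 3, and ranged from −2.09 (without mutant 6) to −0.778 with 1 embryo left out. It passed the threshold only in those first 2 settings and without mutant 6, the same settings in which 1 member was called (0 to 1 with 1 embryo left out). DESeq2 put lmx1a at −0.951 without a p-value, so that setting could not call it. Over all genes 43 were called by DESeq2, 32 with voom weights, 34 without mutants 6 and 7 and sibling 3, 1 in the 6 embryos without the block, and 0 to 24 with 1 embryo left out. In those first 3 settings the dorsal list had 3, 3 and 4 calls and the floor plate list 4, 3 and 5, and with 1 embryo left out 0 to 4 each.

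Signs of near-zero values turned. With TPM, msxd was 0.00918 and 0.00956 and pax7b 0.0227 and 0.0239. Under upper-quartile scaling pax7b was 0.00136. With voom weights pax3a was −0.0466 and pax7a −0.0384. Without mutant 7 and sibling 3, msxe was 0.0565 and pax7b 0.00675, and without mutant 6 as well, pax3a was −0.0452 and pax7a −0.00824. With 1 embryo left out the ranges were −0.192 to 0.0539 for msxa, −0.0486 to 0.00263 for msxd, −0.156 to 0.0746 for msxe, −0.0367 to 0.075 for pax3a, −0.0405 to 0.0449 for pax7a and −0.0488 to 0.0327 for pax7b. The cause was not tested.

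With the replicate block, over the 6 embryos whose numbers are shared, 0 members were called and lmx1a was at −1.96 (edgeR adjusted p = 0.999), against −1.99 (0.591) in the same embryos without it. The block put lmx1ba at −0.0521 and lmx1bb at −0.179. Those 6 do not include mutant 6. The counts of lmx1a were low. Its SE by edgeR was 0.57 over all embryos and 0.24 without mutant 6. How far the low counts limited its precision was not tested.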
